A study of Mus musculus with 4 samples.

Results

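The cells described here are postnatal mouse forebrain cells that carried the astroglial glutamate transporter Slc1a3 together with Veph1, Sfrp1, Lhcgr or Adamts18, and are called stem-like cells below. They numbered 651 of the 17623 cells that passed the filters on depth and mitochondrial reads. A cell was a member when its unique molecular identifiers (UMIs, each standing for 1 captured transcript) of Veph1, Sfrp1, Lhcgr and Adamts18 summed to at least 4, when it had at least 2 UMIs of Slc1a3 and at most 2 of Gfap, and when it had none of the mitotic genes Mki67 and Top2a, the ependymal genes Tmem212 and Ccdc153 or the oligodendrocyte precursor gene Pdgfra. The members were chosen by the measured UMIs of these 11 genes, so their values are given as a description, and no difference between the members and other cells was tested.

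The study asked how loss of 1 copy of Chd8, a chromatin remodeler mutated in autism, changes the developing forebrain. Cells positive for the tdTomato reporter were sorted from the telencephalon of C57BL/6 mice at postnatal day 5 and profiled by droplet 3′ single-cell RNA sequencing. The control genotype was NestinCreERT2/tdTomato/Chd8+/+ and the mutant genotype NestinCreERT2/tdTomato/Chd8+/F, with 2 libraries of each and cells of 3 mice pooled in a library. All mice carried the Cre and the reporter and had received tamoxifen at embryonic day 14.5, so the deletion and the label were directed to cells descended from Nestin-positive progenitors of that day, and the dissociated cells held no record of their position in the tissue. The 4 matrices held 79328841 and 46274374 UMIs for control replicates 1 and 2 and 78211984 and 50616343 UMIs for mutant replicates 1 and 2. The replicate 1 libraries were counted with Cell Ranger 7.0.0 and the replicate 2 libraries with 5.0.1 according to the matrix headers. The X-linked transcript Xist was at 0.28 and 0 CPM (counts per 1000000 UMIs) in the members of control and mutant replicate 1 and at 1856 and 1965 CPM in those of replicate 2, while the Y-linked Ddx3y was at 94.4 and 74.9 CPM in replicate 1 and at 0 in replicate 2. The study's reporting summary names males as the source of the single-cell libraries, and the levels of these genes in both replicate 2 libraries go against that. Sex as read from these genes, software version and replicate number cannot be told apart, but each replicate number held 1 control and 1 mutant library.

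Neural stem cells of the ventricular-subventricular zone descend from the radial glia of the fetal brain, line the lateral ventricles after birth and keep astroglial genes such as Slc1a3. They give rise to interneurons of the olfactory bulb and to glia, and at any moment many of them are not dividing. Sfrp1 encodes a secreted protein that binds Wnt ligands, Veph1 a pleckstrin homology protein first described in the ventricular zone, Lhcgr the receptor for luteinizing hormone, Hgf the ligand of the receptor tyrosine kinase Met, and Plagl1 an imprinted zinc finger transcription factor. In the mm10 build Veph1 lies at chr3:66053558-66296837, Sfrp1 at chr8:23411502-23449632, Lhcgr at chr17:88716481-88791990, Hgf at chr5:16553495-16620152 and Plagl1 at chr10:13060504-13131694.

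The members numbered 284 and 94 in control replicates 1 and 2 and 220 and 53 in mutant replicates 1 and 2. Their median depth was 11721 and 10222 UMIs in the control libraries and 11089.5 and 13193 in the mutant libraries. The replicate 2 libraries were thin, and mutant replicate 2 supplied only 717386 UMIs from members against 3569235 in control replicate 1. No member barcode occurred in more than 1 library, and any pair of libraries shared 2 to 15 barcodes among all cells kept. Of the 4 summed genes, Sfrp1 was detected in 573 members (88.0%), Veph1 in 427 (65.6%), Adamts18 in 336 (51.6%) and Lhcgr in 191 (29.3%). Most members had more than 1 of them, with 247 cells positive for 2 genes, 193 for 3, 81 for all 4 and 130 for a single gene. Just inside the threshold 106 cells had a sum of 4, and just outside it 173 cells that met every other condition had a sum of 3. At the limit of Gfap, an astroglial intermediate filament gene, 94 members had 2 UMIs and 64 otherwise eligible cells had 3, and 421 members had none. Of 1970 kept cells with a sum of at least 4, 379 exceeded the Gfap limit, whether or not they met the other conditions.

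The share of Veph1 in the 4-gene UMIs followed the replicate number. It was 26.4% and 27.1% in control and mutant replicate 1 and 7.69% and 8.11% in control and mutant replicate 2, while Sfrp1 supplied 50.6% and 47.6% in replicate 1 and 79.5% and 65.6% in replicate 2. Veph1 spans 243280 bases, and the counting of reads in introns differs by default between these Cell Ranger versions. The part of the software in the Veph1 difference was not tested, and it cannot be told apart from sex. The level of a gene in the members was taken as its UMIs divided by the UMIs summed over the members of a library, as CPM. Veph1 was at 254 and 80.1 CPM in the control and 229 and 47.4 CPM in the mutant libraries, Sfrp1 at 487 and 828 against 402 and 383 CPM, and Lhcgr at 68.9 and 31.3 against 65.6 and 15.3 CPM. These 3 genes chose the cells, so their levels in the members depend on the rule, and no difference between genotypes is read from them.

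The label was checked against marker lists, and 68 of the 651 members went against it. These cells, 33 and 3 in the control and 24 and 8 in the mutant libraries, each had at least 10 UMIs of 12 neuron markers. Their median was 4 UMIs of Slc1a3, compared with 43 in the other 583 members, and 43 of them had at most 5 Slc1a3 UMIs compared with 4 of the 583. They held 98.7% of the members' UMIs of Neurod1, a transcription factor of young excitatory neurons, and 92.3% of those of Dcx, the microtubule protein of migrating neurons, but 3.04% of Veph1, 2.90% of Sfrp1, 3.04% of Hgf and 1.76% of Plagl1. Of the 4 summed genes, Adamts18, a secreted metalloproteinase gene, had the most UMIs in these cells, which held 24.7% of the members' Adamts18 UMIs. How many of them met the sum only through Adamts18 was not counted. Among all 4880 kept cells with at least 10 UMIs of the neuron markers, 36.2% had at least 2 UMIs of Slc1a3 with a median of 1, so that this condition alone did not keep neurons out. A further 20 of the 68 had at least 20 Slc1a3 UMIs beside the neuron markers, at a median depth of 19670 UMIs. No doublet caller was run, and whether these were droplets with more than 1 cell was not tested.

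**Figure D1:**
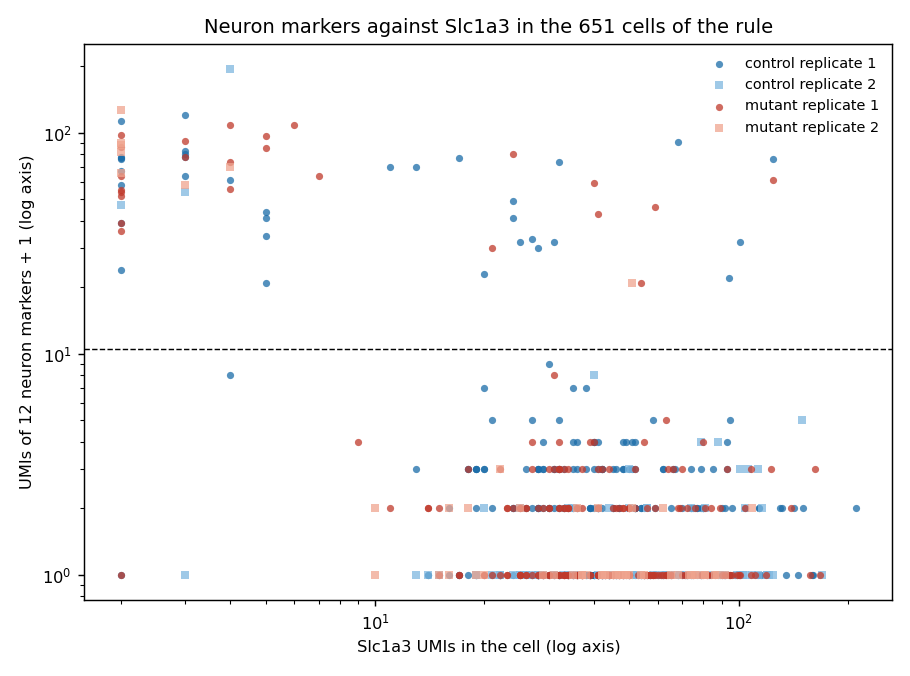
Each point is 1 of the 651 members, with its Slc1a3 UMIs on the x axis and its UMIs of the 12 neuron markers plus 1 on the y axis (both log axes), colored by library; the dashed line marks 10 UMIs. The 68 cells above the line have a median of 4 Slc1a3 UMIs, and the 583 below it a median of 43.

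Counting every other cell class with a marker list, 142 members (62 and 16 in the control, 46 and 18 in the mutant libraries) had at least 10 UMIs of 1 list. The lists concerned were early neuron (67 cells), excitatory neuron (45), ependymal (40) and oligodendrocyte lineage (35), with 2 cells each for the endothelial, mural and fibroblast lists, 1 for choroid plexus and 0 for microglia. The share was largest in mutant replicate 2, at 34.0% of its 53 members. Single cells dominated several genes, as 9733 of the 9763 Ttr UMIs in the members of control replicate 2 came from 1 cell and 171 of the 173 Cldn5 UMIs in those of mutant replicate 1 from another. Ttr is the transthyretin gene of the choroid plexus and Cldn5 a tight junction gene of endothelium. Removing the 142 cells left 509 (222 and 78 in the control, 174 and 35 in the mutant libraries), referred to as the stricter set. The results below are given for all members and, where the value moved, for the stricter set, a removal chosen after the data were seen.

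The members were set against 2008 Slc1a3 cells that met every other condition but had no UMI of the 4 genes (4-gene-negative cells, 659 and 341 in the control and 606 and 402 in the mutant libraries). Hgf and Plagl1, the given markers that the rule did not use, were both higher in the members in all 4 libraries. Hgf was at 110 and 82.0 CPM in the members of the control and 107 and 25.1 CPM in those of the mutant libraries, compared with 15.9 ± 9.61 CPM (SD, n = 4 libraries) in the 4-gene-negative cells and 2.19 ± 0.478 CPM in ependymal cells. Plagl1 was at 182 and 110 CPM in the control and 159 and 75.3 CPM in the mutant libraries, compared with 10.3 ± 2.58 CPM in the 4-gene-negative cells and 80.0 ± 10.7 CPM in ependymal cells. Hgf was thus lowest in mutant replicate 2, where it still exceeded the 4-gene-negative cells of every library, and Plagl1 in mutant replicate 2 lay within the range of the ependymal cells. After thinning every cell to 5000 UMIs, Hgf was detected in 34.4% of 631 members (exact 95% interval 30.7 to 38.2), in 7.38% of 1681 4-gene-negative cells and in 0.727% of 275 microglia-gated cells, a class that should lack the gene. Plagl1 was detected in 45.2%, 3.99% and 0.364% of the same cells. The libraries differed by more than this pooled interval, with Hgf in 40.0% and 31.2% of the thinned members of the control and 33.8% and 12% of those of the mutant libraries, and Plagl1 in 49.8% and 41.9% against 46.0% and 22.0%. Mutant replicate 2 was the lowest for both genes, and in each library both shares were above those of its 4-gene-negative cells. Without thinning the members reached 50.2% for Hgf and 60.4% for Plagl1. Thinning left out 20 members, 327 4-gene-negative cells and 37 microglia-gated cells, and these intervals cover counting error only.

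**Figure D2:**
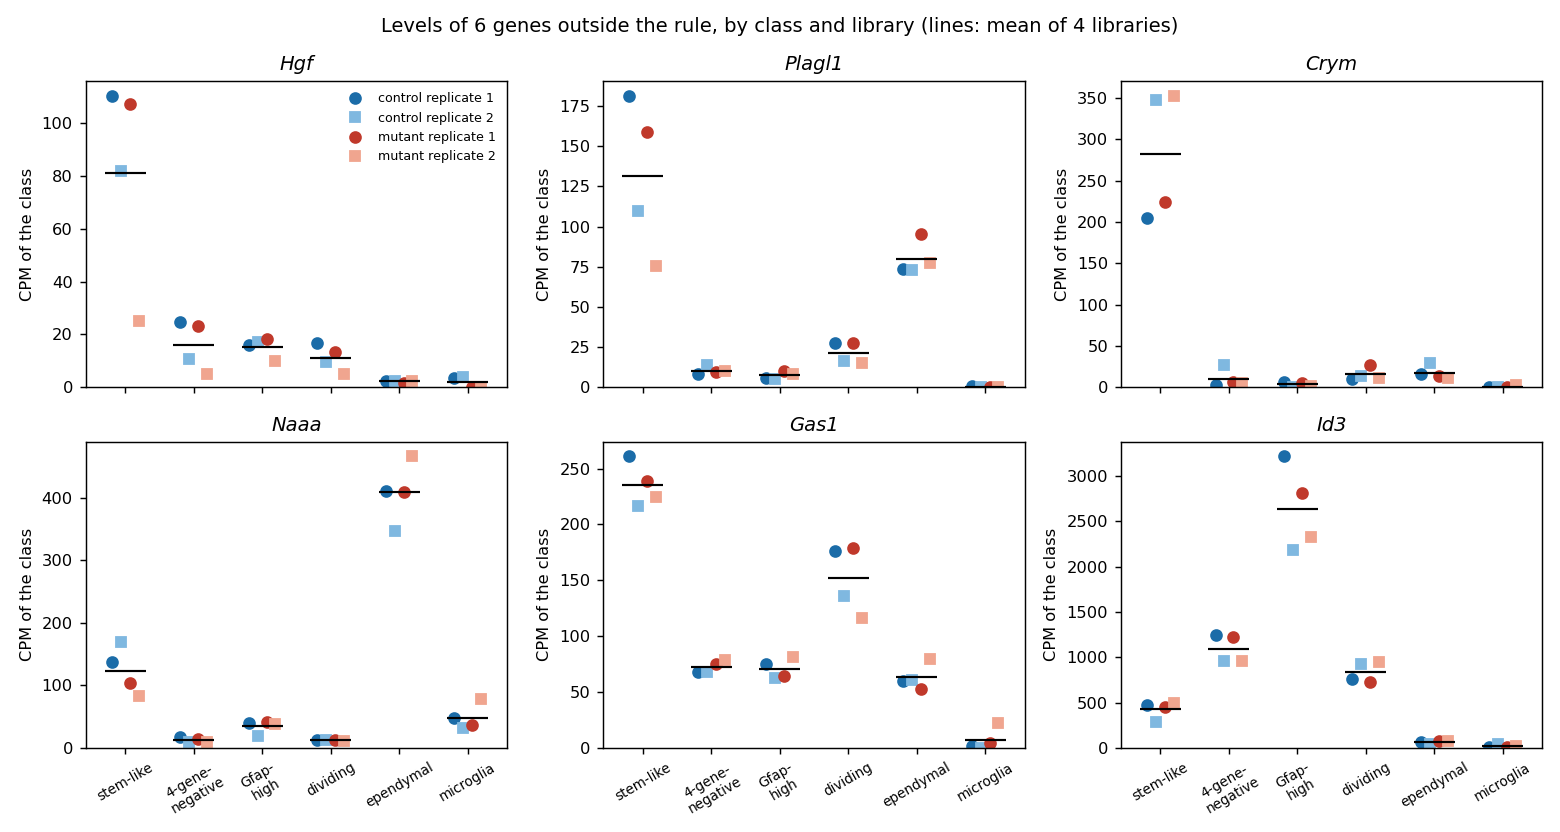
CPM of Hgf, Plagl1, Crym, Naaa, Gas1 and Id3 (y axis) in 6 cell classes (x axis), 1 point per library and a line at the mean of 4 libraries. Hgf and Crym are highest in the stem-like cells, Plagl1 is shared with ependymal cells, Naaa is highest in ependymal cells, and Id3 is highest in the Gfap-high cells. The Gfap-high class holds only cells with no UMI of the 4 genes.

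Of 8843 genes outside the rule at 10 CPM or more in every library of either class, 178 (2.01%) were at least 2-fold higher in the members than in the 4-gene-negative cells in every library, and 89 (1.01%) at least 2-fold lower. In the stricter set the counts were 199 (2.25%) and 109 (1.23%). The median log2 ratio over all these genes was 0.04, and 0.09 in the stricter set. Ratios are of CPM + 1 on the log2 scale, with the mean and SD over 4 libraries, and understate the change of low genes. Genes at 50 CPM or more were then ranked by the library nearest to no difference, and the 20 highest and 15 lowest were taken. All 35 kept their direction in every library after thinning to 5000 UMIs, after matching the 4-gene-negative cells to the members on depth, and in the stricter set.

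The gene with the highest ratio was Crym, which encodes a thyroid hormone-binding crystallin, at 204 and 347 CPM in the members of the control and 224 and 353 CPM in those of the mutant libraries (log2 ratio 5.18 ± 1.12). It was a gene of a minority, detected in 17.4% of the members and 1.67% of the 4-gene-negative cells at 5000 UMIs, while no Crym UMI was found in 275 thinned microglia-gated cells (exact 95% upper limit 1.33% of cells with a UMI at this depth, with 0.321% before thinning). Several of the genes that follow are known from cilia and were also expressed by ependymal cells. Riiad1 was at 131 and 210 against 166 and 188 CPM in control and mutant members (3.57 ± 0.35), and the ciliary Enkur (3.21 ± 0.46) and Mlf1 (3.06 ± 0.40) had similar ratios. Naaa, a lysosomal amidase, was at 137 and 169 CPM in the control and 103 and 83.6 CPM in the mutant members (3.16 ± 0.56). Both Riiad1 and Naaa were higher still in ependymal cells, at 866 ± 86.7 and 409 ± 48.7 CPM, and 18.9% of the thinned microglia-gated cells had a Naaa UMI.

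The other genes of the higher group included signaling and metabolic genes. Gfra1, the GDNF co-receptor, had a log2 ratio of 2.83 ± 0.56, and Entpd2, an ectonucleotidase, of 2.25 ± 0.40. Gas1, a Hedgehog co-receptor, was at 261 and 216 CPM in the control and 239 and 224 CPM in the mutant members, with the 4-gene-negative cells at 72.5 ± 5.37 CPM and dividing Slc1a3 cells at 152 ± 30.6 CPM. Gas1 was higher in the members than in each of the 5 other classes in all 4 libraries. Ddo, Fxyd1, Tmem132b, Hspa2, Gm973, Gsta4, Pdlim4, Scrn1, Nkain4 and Gm11627 were also in the group, with mean log2 ratios from 1.46 for Nkain4 to 2.80 for Ddo.

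In the lower group, 3 genes moved toward 0 once cells with 10 or more UMIs of any of the 9 lists were left out of both classes, and 12 did not. Neuron-marked cells were not left out alone. The interneuron genes Dlx6os1 and Dlx1 had log2 ratios of -4.11 ± 1.49 and -3.32 ± 0.67 over all cells and of -1.04 ± 0.56 and -0.72 ± 0.45 in the stricter set, and Nrxn3, a synaptic adhesion gene, went from -2.25 ± 0.79 to -0.70 ± 0.51. In the 4-gene-negative class 959 of 2008 cells (47.8%) carried at least 10 UMIs of another class's list. The other 12 genes were farther from 0 in the stricter set. Grm3, a glutamate receptor, was at 272 and 135 CPM in the control and 293 and 71.1 CPM in the mutant members (-1.38 ± 0.13, and -1.89 ± 0.35 in the stricter set). Hbegf, an EGF receptor ligand, went from -1.87 ± 0.54 to -2.55 ± 0.65, Timp4, a metalloproteinase inhibitor, from -1.71 ± 0.49 to -2.06 ± 0.75, and Scd1, a fatty acid desaturase, from -1.77 ± 0.39 to -2.12 ± 0.59. Dbx2, Grin3a, Sez6l, Ctsc, Tnfrsf21, Tmem176a, Kcnd2 and Rgs7 had mean log2 ratios between -2.11 for Grin3a and -1.49 for Rgs7.

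**Figure D3:**
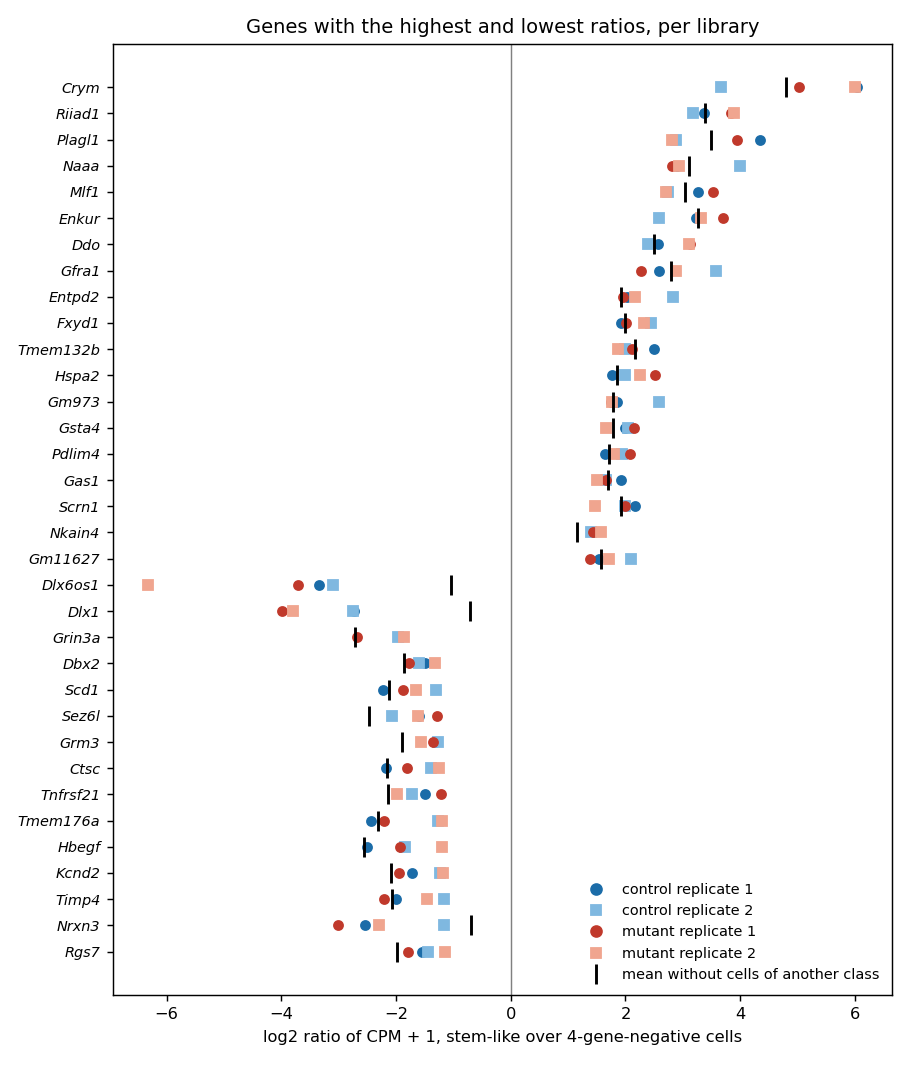
The log2 ratio of CPM + 1 in stem-like over 4-gene-negative cells (x axis) for 19 of the 20 highest and the 15 lowest genes (y axis), 1 point per library; black ticks are the mean after cells of another class were left out. All points of the upper 19 genes lie right of 0 and all of the lower 15 left of it, and the ticks of Dlx6os1, Dlx1 and Nrxn3 lie nearer to 0 than their points.

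Genes of radial glia and stem cells were measured in 18 of 20 cases, and 3 of these (Gas1, Nr2e1 and Notch2) were at least 2-fold higher in the members in every library and none lower, with a median log2 ratio of 0.50. By the same measure 2.01% of all 8843 genes were higher and 1.01% lower (2.25% and 1.23% in the stricter set). Nr2e1, an orphan nuclear receptor needed for stem cell maintenance, was at 111 and 99.5 CPM in the control and 110 and 94.8 CPM in the mutant members (log2 ratio 1.13 ± 0.08), and at 0.92 ± 0.11 in the stricter set it no longer passed 2-fold everywhere. The transcription factor Sox9 had a ratio of 0.82 ± 0.15. Lrig1, a brake on EGF receptor signaling, went the other way at -0.97 ± 0.18 and was at least 2-fold lower in every library of the stricter set (-1.48 ± 0.17). Of 15 mature astrocyte genes, 1 (S100b) was at least 2-fold lower in every library and none higher. S100b was at 7.28 and 12.9 CPM in the control and 11.9 and 13.9 CPM in the mutant members against 54.1 ± 10.1 CPM in the 4-gene-negative cells. In the stricter set the water channel gene Aqp4 (-1.85 ± 0.54) and the angiotensinogen gene Agt (-3.66 ± 1.87) joined S100b, and 10 of the 15 genes were lower by any amount in all 4 libraries, as were 15.5% of all 8843 genes.

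Ependymal genes outside the rule were above the 4-gene-negative cells but far below ependymal cells. Of 6 measured, 5 were at least 2-fold higher in every library, and 4 in the stricter set, compared with 2.01% and 2.25% of all 8843 genes. Foxj1, the master transcription factor of motile cilia, was at 28.3 and 52.5 CPM in the control and 49.7 and 47.4 CPM in the mutant members, compared with 6.16 ± 2.30 CPM in the 4-gene-negative and 671 ± 141 CPM in the ependymal cells. Rsph1, a radial spoke gene, was at 26.9 ± 6.89, 2.87 ± 1.89 and 1166 ± 63.5 CPM in the same classes. At 5000 UMIs, 13.2% of the members had a Foxj1 UMI, compared with 2.44% of the 4-gene-negative and 1.09% of the microglia-gated cells. The rule removed cells with any UMI of Tmem212 or Ccdc153, and the part of early ependymal cells below that limit was not tested.

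Signaling pathways were described from the ligand to the targets. Of 8 Hedgehog genes measured, 2 were at least 2-fold higher in every library and none lower, and both were the co-receptors Gas1 and Cdon (log2 ratios 1.68 ± 0.17 and 2.12 ± 0.35). Over all 8843 genes 2.01% were higher and 1.01% lower by this measure. The ligand Shh had no UMI in the members, the transcriptional effector Gli3 had a ratio of 1.28 ± 0.33, and the receptor and target Ptch1 was at 156 ± 41.8 CPM in the members and 165 ± 17.4 CPM in the 4-gene-negative cells. Gli3 was at 422 and 343 CPM in control and mutant replicate 1 and at 92.1 and 83.6 CPM in replicate 2, so its level followed the replicate number more than the genotype. Of 21 Wnt genes outside the rule, 1 (the receptor Fzd8, 1.79 ± 0.48) was higher by this measure and 2 lower, namely Lef1, a nuclear effector and target (-1.41 ± 0.63), and the R-spondin receptor gene Lgr6 (-2.19 ± 0.93). Sfrp5, a relative of Sfrp1 that was too low to be counted, was at 10.9 ± 4.15 and 1.15 ± 0.42 CPM in the respective classes.

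The Id genes, which are targets of bone morphogenetic protein signaling, were split. Id4 was at 470 and 464 CPM in the control and 441 and 332 CPM in the mutant members (log2 ratio 1.55 ± 0.30), while Id1 (-0.97 ± 0.34), Id2 (-1.05 ± 0.26) and Id3 (-1.38 ± 0.33) were lower. All 4 libraries showed each of these directions, and Id2 and Id3 passed 2-fold in every library of the stricter set. In that pathway list, 1 of 14 genes was at least 2-fold higher in every library and none lower, while in the stricter set none was higher and 2 (Id2 and Id3) were lower. By any amount, 7 of the 14 were lower in all 4 libraries and 1 higher, with a median log2 ratio of -0.26. In the stricter set these were 9 and 1, with a median of -0.45. By the 2-fold measure 2.01% of all 8843 genes were higher and 1.01% lower (2.25% and 1.23% in the stricter set). In the Notch list 1 of 13 was higher, the receptor Notch2 (1.57 ± 0.31), joined by the ligand Jag1 in the stricter set (1.81 ± 0.40), and none was lower by 2-fold. By any amount, however, 7 of the 13 Notch genes were lower in all 4 libraries and 3 higher, where 18% of all 8843 genes were lower and 27% higher, and the median log2 ratio of the list was -0.23 over all members and -0.36 in the stricter set (7 lower and 2 higher). Hes5, a Notch target, differed little at -0.23 ± 0.04. Of 12 FGF and EGF genes, 3 (Fgfr3, Spry1 and Erbb4) were lower and none higher. Egfr, which marks activated stem cells, was at 182 and 132 CPM in the control and 162 and 194 CPM in the mutant members against 236 ± 53.1 CPM, and its ratio of -0.48 ± 0.48 changed sign between libraries.

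The receptor for Hgf was nearly absent from the cells that carried the ligand, with Met at 0.996 ± 0.803 CPM and 9 UMIs in all members. Most other genes on the list of Lhcgr, which holds gonadotropin receptors and steroid synthesis genes, were at or near 0. Its relative Fshr had no UMI in the members, and the steroid synthesis genes Star and Cyp11a1 were at 4.71 ± 1.55 and 0.348 ± 0.697 CPM. Tshr, the thyrotropin receptor gene, was at 33.6 and 16.6 CPM in the control and 30.4 and 2.79 CPM in the mutant members, compared with 4.40 ± 2.01 CPM in the 4-gene-negative cells, and was lowest in mutant replicate 2 as Lhcgr was. Of 10 imprinted growth genes, 1 (Plagl1) was at least 2-fold higher in every library and none lower, where 2.01% of all 8843 genes were higher and 1.01% lower. In the stricter set Plagl1 remained the 1 higher gene, and Cdkn1c, a cyclin-dependent kinase inhibitor gene, was lower (-2.67 ± 1.24, from -1.24 ± 1.21 over all members). Meg3, a maternally expressed noncoding RNA, changed direction with the removal of other cell classes, from -0.84 ± 0.47 to 1.30 ± 0.77. None of 13 genes of activation and cell cycle entry reached 2-fold in either direction in every library over all members. In the stricter set 1 was higher, the transcription factor gene Mycn (0.80 ± 0.76 over all members and 2.10 ± 0.52 in the stricter set), and none lower. Ccnd2, a G1 cyclin, was lower in all 4 libraries at -0.95 ± 0.11. By any amount, 5 of the 13 genes were higher in all 4 libraries and 1 lower, with a median log2 ratio of 0.20. In the stricter set these were also 5 and 1, with a median of 0.54. Of all 8843 genes 27% were higher and 18% lower over all members.

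Regional genes were set against the 4-gene-negative cells in the same way. Of 6 pallial genes measured none reached 2-fold in either direction in every library, and Lhx2, a selector of the cortex, was at 265 ± 82.8 CPM in the members and 170 ± 23.8 CPM in the 4-gene-negative cells. Of 4 septal and ventral genes, 1 (Nkx6-2) was higher, at 12.9 and 29.5 CPM in the control and 13.7 and 18.1 CPM in the mutant members against 2.12 ± 1.32 CPM. Of 6 subpallial genes 3 were lower and none higher, and none was either in the stricter set. For all of these regional counts, 2.01% of all 8843 genes were higher and 1.01% lower by the same measure.

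The levels changed in steps with the sum of the 4 genes, also among cells outside the rule. With cells of another class left out, Plagl1 was at 13.1 ± 4.28 CPM in cells with a sum of 0, 37.4 ± 24.2 CPM at 3, 39.5 ± 31.2 CPM at 4, 119 ± 9.23 CPM at 5 to 9 and 218 ± 93.0 CPM at 10 or more. Hgf was at 20.9 ± 11.6, 43.5 ± 22.2, 28.1 ± 19.3, 70.4 ± 47.1 and 140 ± 66.7 CPM in these steps. Both genes were therefore at a similar level just inside and just outside the threshold, and the cells with 5 or more UMIs carried most of the difference. Aqp4 took the opposite course, from 1146 ± 125 CPM at a sum of 0 to 508 ± 386 CPM at 4. The steps held 1049, 107, 70, 174 and 265 cells. Before that removal the median depth was 10247.5 UMIs at a sum of 0, 12663.5 at 1 to 3 and 11322 in the members, and the part of depth in the levels was not tested.

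**Figure D4:**
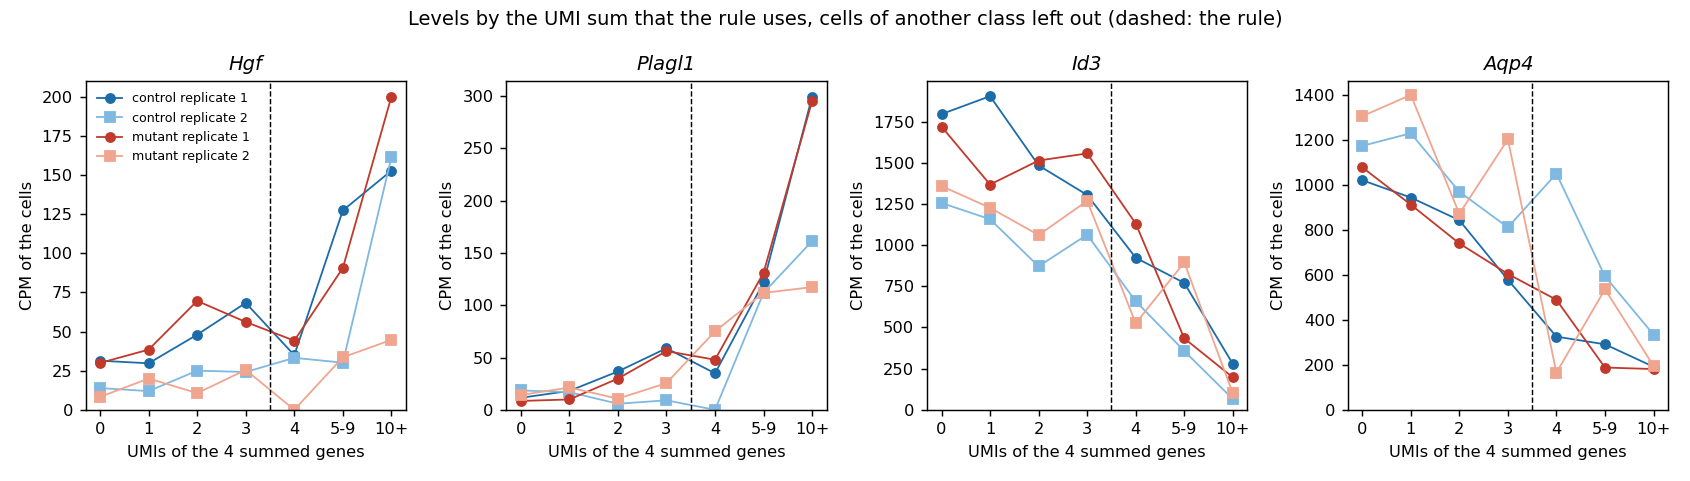
CPM of Hgf, Plagl1, Id3 and Aqp4 (y axis) by the UMI sum of the 4 genes (x axis), 1 line per library, with cells of another class left out; the dashed line is the threshold of the rule. Plagl1 and Hgf are highest at 10 or more UMIs, while Id3 and Aqp4 are highest at the left.

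Members that had Sfrp1 alone among the 4 genes differed from those with Veph1 or Lhcgr. In the stricter set there were 58 of the former (17 and 22 in the control, 13 and 6 in the mutant libraries) and 412 of the latter (199 and 42, 152 and 19). Of 15 mature astrocyte genes, 7 were higher by any amount in the Sfrp1-only cells in all 4 libraries and 0 were lower, where 6.12% of all 8843 genes were higher and 13.1% lower. Among genes chosen after their values were seen, the Sfrp1-only cells had Aqp4 at 785 ± 238 against 269 ± 98.1 CPM, the GABA transporter gene Slc6a11 at 840 ± 244 against 438 ± 178 CPM and Id3 at 904 ± 366 against 376 ± 107 CPM. The cells with Veph1 or Lhcgr had the higher Plagl1 (171 ± 66.2 against 63.5 ± 26.0 CPM), whereas Hgf was at 105 ± 49.0 and 71.4 ± 33.6 CPM, within the spread. The Sfrp1-only cells were 22 of 78 in control replicate 2 and 17 of 222 in control replicate 1.

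Between genotypes, Chd8 itself was examined first. It was at 56.9 and 95.8 CPM in the control and 68.6 and 89.2 CPM in the mutant members, and the groups overlapped. The log2 change was 0.01 (SE 0.39, adjusted p = 1.0, edgeR quasi-likelihood test). Where the Chd8 reads lay relative to the deleted exons was not analysed here, so the level of Chd8 is no check of the deletion itself. No gene passed an adjusted p of 0.05 among 11644 tested in the members (0%), and 32 had an unadjusted p under 0.05. DESeq2 also called 0 genes, with 13 at an unadjusted p under 0.05, as did edgeR with the replicate number as a block, with 313. The change between genotypes was not shown to differ between the members and the 4-gene-negative cells for any of 13974 genes (0% at an adjusted p of 0.05, 256 at an unadjusted p under 0.05, and DESeq2 0 and 38). That count was 3 once cells with 2 or more UMIs of another class were removed from both classes, and it also moved on omission of some single libraries.

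Without a gene that passed, the direction of the groups is given as counts. Of all 11644 genes, 26.6% were higher and 25% lower in the mutant library of both replicates. Sfrp1, Veph1 and Lhcgr chose the cells, so their change between genotypes is not independent of the rule and is not counted. Of the given markers outside the rule, Hgf had a log2 change of -0.52 (SE 0.67) and Plagl1 of -0.32 (SE 0.47), and neither passed (adjusted p = 1.0, edgeR). Both were lower in both replicates over all members, whereas in the stricter set Hgf was at 134 CPM in control and 136 CPM in mutant replicate 1. Over all members Hgf dropped by 0.04 on the log2 scale in replicate 1 and by 1.67 in replicate 2, so that most of the difference lay in replicate 2.

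Of 16 genes of activation and cell cycle entry, 10 were higher in the mutant library of both replicates and none lower in both, with a median log2 change of 0.47. In the stricter set these were 12 of 15 and none, where 25.7% of all 10583 genes were higher and 27.3% lower, with a median of 0.54. None of these genes passed the test. The DNA replication licensing genes had the larger values, with Mcm5 at 4.48 and 4.61 CPM in the control and 8.16 and 19.5 CPM in the mutant members (log2 change 1.49, SE 0.68) and Mcm2 at 7.84 and 3.68 against 12.2 and 18.1 CPM (1.25, SE 0.60). Pcna, the sliding clamp of DNA polymerase, was at 74.0 and 58.9 against 92.3 and 116 CPM (0.61, SE 0.30). Both mutant libraries lay above both controls for these 3 genes, but the share of all genes that separate in this way was not counted. Mutant replicate 2, with 53 cells and 717386 UMIs, was the highest each time. Mcm5 and Mcm2 were at no more than 19.5 CPM in any library and so rest on few UMIs. Markers of some other cell types moved the same way, and those of others did not. The 2 measured endothelial genes were higher in both replicates (median log2 change 4.72), and the 1 choroid plexus gene was lower in both (-10.0). Single cells set most of these values. For Cldn5, 1 cell held 171 of 173 UMIs in mutant replicate 1 and another 10 of 11 in mutant replicate 2. For Ttr, 1 cell held 9733 of 9763 UMIs in control replicate 2, and the replicate 1 libraries had 9 UMIs in the control and 6 in the mutant. Of 7 early neuron genes 3 were higher and 2 lower in both, of 6 ependymal genes 1 and 2, and of 3 mural genes 0 and 1. The endothelial list summed to 3.64 and 1.84 CPM in the control and 101 and 40.4 CPM in the mutant members. All 4 measured genes of the oligodendrocyte lineage list were higher in both replicates, with a median log2 change of 0.73 over all members and 0.70 in the stricter set, and the 9 genes of that list summed to 148 and 170 CPM in the control and 182 and 389 CPM in the mutant members. Olig1 was the most abundant, and Pdgfra, which the rule fixed, and Mog were at 0. The excitatory neuron list summed to 143 and 95.8 against 185 and 323 CPM over all members, with Neurod1 the most abundant, and to no more than 7.03 CPM in any library of the stricter set. That low sum was set in advance, since cells with 10 or more UMIs of the list were removed. The oligodendrocyte lineage list still summed to 74.2 and 169 CPM in the control and 119 and 280 CPM in the mutant cells of the stricter set. The part of other cell classes in the cell cycle values was not tested beyond that removal. Of 10 Hedgehog genes none was higher and 5 were lower in both replicates, and in the stricter set 1 of 9 was higher and 4 were lower.

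When the cells of another class were removed and the replicate number was used as a block, 2 of 10583 genes passed. With the removal alone, or with the block alone, no gene passed. The 2 genes were chosen after their values were seen. Pnp encodes the purine salvage enzyme purine nucleoside phosphorylase. In the stricter set it was at 34.0 and 33.8 CPM in the control and 81.4 and 96.6 CPM in the mutant cells (log2 change 1.32, SE 0.24, adjusted p = 0.00306, edgeR with the block). Over all members it was at 31.7 and 35.9 CPM in the control and 75.3 and 99.0 CPM in the mutant libraries (1.33, SE 0.32, adjusted p = 1.0, edgeR without the block). The groups did not overlap, and the same held in the 4-gene-negative cells, at 41.9 and 28.5 against 70.9 and 81.5 CPM, in Gfap-high cells, at 67.4 and 42.9 against 88.6 and 80.5 CPM, and in dividing cells, at 31.9 and 28.5 against 40.1 and 66.2 CPM. In ependymal cells Pnp was at 53.8 and 50.8 against 54.8 and 55.8 CPM, a smaller difference without overlap, and in microglia-gated cells, at 227 and 128 against 214 and 272 CPM, the groups overlapped. The change in the members was not shown to differ from that in the 4-gene-negative cells (difference in log2 change 0.26, SE 0.27, adjusted p = 1.0, edgeR). Pnp lies at chr14:50931082-50965237 in mm10, 1.23 Mb from Chd8 at chr14:52198151-52257780, and its neighboring copy Pnp2 was at no more than 1.39 CPM in the members. The other gene, Ecrg4, a secreted peptide precursor abundant in ependymal cells, was at 96.9 and 123 CPM in the control and 53.4 and 23.6 CPM in the mutant cells of the stricter set (log2 change -1.29, SE 0.24, adjusted p = 0.00306, edgeR with the block). Without the block it did not pass, at -1.46 (SE 0.46, adjusted p = 1.0) in the stricter set and -2.02 (SE 0.73, adjusted p = 1.0) over all members. In other classes Ecrg4 took no common direction, at 53.8 and 80.4 CPM in the control against 88.2 and 99.6 CPM in the mutant libraries in Gfap-high cells, 691 and 1087 against 694 and 1070 CPM in ependymal cells, 32.6 and 38.3 against 30.8 and 21.8 CPM in dividing cells, and 9.04 and 52.4 against 9.52 and 23.3 CPM in the 4-gene-negative cells. The change in the members was not shown to differ from that in the 4-gene-negative cells (difference in log2 change -1.09, SE 0.64, adjusted p = 1.0, edgeR). Over all members 1 cell held 114 of the 231 Ecrg4 UMIs of control replicate 2.

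The members made up 4.97% (exact 95% interval 4.42 to 5.57) and 3.16% (2.56 to 3.86) of all cells passing the filters in control replicates 1 and 2, and 3.89% (3.40 to 4.42) and 1.62% (1.21 to 2.11) in mutant replicates 1 and 2. The mean was 4.07 ± 1.28% in the control and 2.75 ± 1.61% in the mutant libraries (SD, n = 2), a difference of -1.32 percentage points (exact permutation test, two-sided, p = 0.667). Of Slc1a3 cells that met every other condition they made up 21.0% and 14.3% in the control and 18.2% and 8.19% in the mutant libraries, a difference of -4.44 points between means (exact permutation p = 0.667). With 2 libraries a group the smallest p this test allows is 0.333. Within replicates 1 and 2 the mutant share was lower, with differences of -1.09 and -1.55 points of all cells and of -2.81 and -6.07 points of Slc1a3 cells. The replicates of 1 genotype thus differed by more than the genotypes did, and the sort for tdTomato and the pooling of mice can also set such shares.

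**Figure D5:**
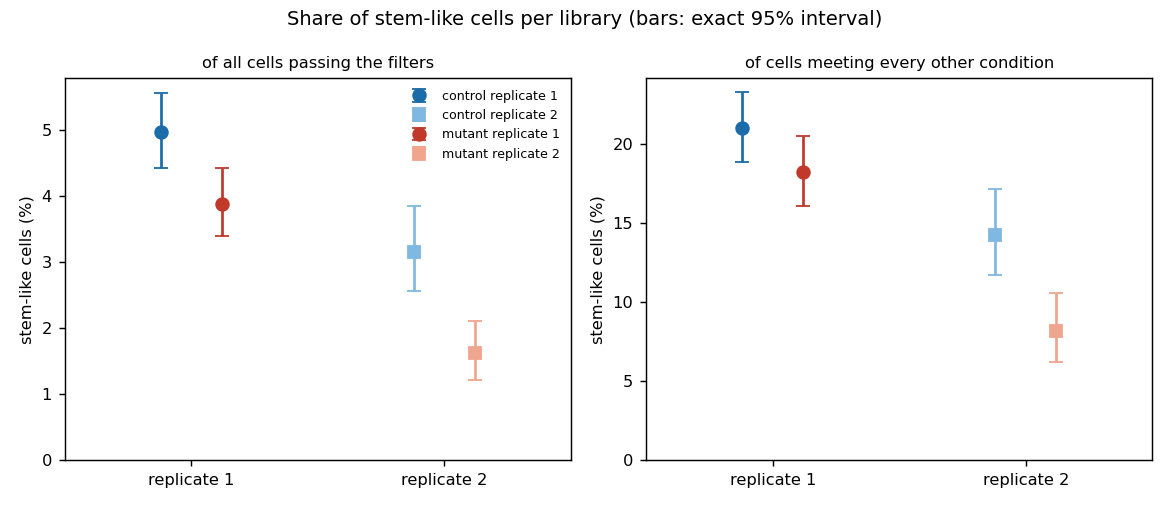
Share of stem-like cells (y axis, percent) by replicate number (x axis) for the 4 libraries, of all cells passing the filters at left and of Slc1a3 cells meeting every other condition at right; bars are exact 95% intervals. In each replicate the mutant point is below the control point, and the replicate 2 points are below those of replicate 1 of the same genotype.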

How the data were processed

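Raw UMI counts per gene and barcode, as deposited by the authors for each library and not normalized, were used with no further correction. The submitters' processing notes name Cell Ranger 3.0, whereas the matrix headers name 7.0.0 (replicate 1) and 5.0.1 (replicate 2), the genome build being mm10. A barcode was kept if its depth lay between 2000 and 40000 UMIs, its genes numbered 1000 or more and mitochondrial UMIs did not exceed 10%, which gave 5710 and 2973 control and 5659 and 3281 mutant cells from 27742 barcodes. No doublet caller was run. Instead, cells with at least 10 UMIs of another class's list were removed as an alternative added after the data were seen. The members and the gene lists were chosen with earlier results of these data known.

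UMIs were summed per class and library, the library being the replicate, and genotypes were compared with edgeR 4.0.16 (TMM, filterByExpr, quasi-likelihood test) in R 4.3.3, with DESeq2 1.42.0 as an alternative, and Benjamini-Hochberg adjustment over all genes tested. The edgeR fit was tested on simulated data, and the outcome is not reported here. Other cell classes were gated on markers: Gfap-high cells had at least 3 UMIs of Gfap, dividing cells at least 2 of Mki67 and Top2a, ependymal cells at least 2 of Tmem212 and Ccdc153, and microglia-gated cells at least 5 of Cx3cr1, C1qa and C1qb. Gfap-high cells also had no UMI of the 4 summed genes, so cells with both Gfap and these genes are not in that class. The dividing and ependymal classes had no limit on the 4 genes. CPM levels between classes carry no test. Named genes were the rule genes, given markers, list members and the 20 highest and 15 lowest ratios, of which some items are not reported here. Equal replicate numbers marked equal software versions, and same-numbered libraries deviated together (r = 0.735 for both pairs over 11644 genes, equal by construction), so a fit with the replicate as a block was run. Nothing stated that a library's pooled mice came from separate litters, so p-values cover the spread between pools. Intervals cover counting error only.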

Additional observations from a re-analysis of the deposited data

How the results depend on the processing

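The count of genes changed between genotypes in the stem-like cells stayed at 0 under 13 of 15 alternatives, among them the replicate block, which changed no call over all members. It was 15 (5 higher, 10 lower) with no filter on low counts, where Ttr, Cldn5, Dcn and Igf2, each with most UMIs of at least 1 library in a single cell, were among the calls beside Ecrg4 (-2.01, adjusted p = 0.00495, edgeR; 271 UMIs over 77 cells in control replicate 1) and mt-Atp8 (-2.20, adjusted p = 0.000595, 647 UMIs), and 2 (Pnp and Ecrg4) with the replicate block after removal of cells of another class. The alternatives include the omission of each library in turn. Each omission left 1 genotype with a single library, so only the other genotype gave the spread, and these fits say nothing of stability. The log2 change of Chd8 was 0.09 with the replicate block, -0.0858 at a mitochondrial limit of 5%, -0.0814 with a sum of the 4 genes of at least 3, and -0.31 to 0.46 on omission of single libraries. The number of genes whose change differed between classes was 3 after removal of cells with 2 or more UMIs of another class from both classes, which took 458 of 651 members and 1796 of 2008 4-gene-negative cells, and 0 to 21 on omission of single libraries: 21 without control replicate 2, 9 without mutant replicate 1, 3 without mutant replicate 2 and 0 without control replicate 1. The cause was not tested.

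On omission of single libraries the difference in the share of all cells lay between -2.45 and -0.18 points and that in the share of Slc1a3 cells between -9.46 and 0.58 points, with the reversal at 0.58 without mutant replicate 2. With the replicate as a block both differences equal the unblocked ones by construction (-1.32 and -4.44), since each replicate number holds 1 control and 1 mutant library, and the exact permutation p was 0.5, the smallest that test gives. A mitochondrial limit of 5% gave -1.90 and -7.46 points, and Sfrp1 of at least 3 UMIs in place of the 4 genes gave -1.47 and -5.33, each at p = 0.333, the smallest the exact permutation test gives. All 35 named levels kept their direction under the 3 alternatives run.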

Other observations

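Crym divided the stem-like cells of the stricter set, a split made after its values were seen. There were 79 cells with at least 2 Crym UMIs (24 and 16 in the control, 28 and 11 in the mutant libraries) and 407 with none. The transcription factor genes Six3 and Nkx6-2 were higher in the Crym cells, with Six3 at 104 and 145 CPM in the control and 130 and 120 CPM in the mutant libraries against 25.2 ± 21.7 CPM (SD, n = 4) in the cells without Crym, and Nkx6-2 at 87.0 ± 46.4 against 3.13 ± 3.01 CPM. The Wnt deacylase gene Notum was at 52.7 ± 18.7 against 6.32 ± 9.30 CPM. In the other direction, Hopx was at 13.7 ± 21.1 in the Crym cells and 262 ± 137 CPM in the cells without it, Pax6 at 38.0 ± 8.71 and 222 ± 75.6 CPM, and Dmrta2, a cortical patterning factor, at 0.867 ± 1.73 and 44.4 ± 13.4 CPM. Ecrg4 was at 1.57 ± 3.15 in the Crym cells and 96.7 ± 55.4 CPM in the others, with a single UMI in the Crym cells. Plagl1 was at 154 ± 22.6 CPM in the Crym cells and 161 ± 68.8 CPM in the others, a difference within the spread between libraries. In every library 1 cell held 13.7% to 24.9% of the members' Crym UMIs.

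The neuron-marked members also held 83.2% of the members' UMIs of Prox1, a transcription factor of dentate granule neurons.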
